A study of Mus musculus with 19 samples.

Results

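The genes described here encode lysosomal enzymes and lysosomal membrane proteins of DC1, the type 1 conventional dendritic cells, which take up dying cells and present their antigens to CD8 T cells. The list held 37 genes, chosen by name and function with earlier results of these data known. They were 12 proteases, 7 lipid hydrolases or their cofactors, 9 glycosidases, 8 membrane proteins and the transcription factor gene Tfeb. Each gene was read from its brightest probe set that carried a single symbol. All 37 were found on the lymph node arrays among 19938 genes, and 36 on the spleen arrays among 22180, since the spleen probe set of Glb1 also carries another symbol. Ctsk, whose cathepsin K is best known from osteoclasts, did not pass the filter on dim genes in either table (log2 intensity 4.09 to 4.78 in lymph node and 4.04 to 4.52 in spleen). Tests therefore covered 36 members in lymph node and 35 in spleen.

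Lysosomes are acidic organelles in which proteases cut proteins into peptides, glycosidases and lipases take apart sugar chains and lipids, and membrane proteins move the products out and keep the compartment intact. In dendritic cells the same proteases prepare peptides for MHC class II, and the strength of degradation affects how long an antigen lasts. TFEB switches on many lysosomal genes through a short DNA motif, the CLEAR element, which is built around the letters CACGTG. Dendritic cells that leave a tissue for the draining lymph node mature on the way and are called migratory, whereas resident cells live in the node.

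The study hybridised RNA of sorted DC1 to arrays, and all mice were C57Bl/6j. In skin-draining lymph nodes, where all mice carried the Irf8VENUS reporter and the sorted cells were Irf8VENUS+, there were 3 arrays of resident and 2 of migratory WT DC1, and 3 of resident and 3 of migratory Batf3-/- DC1. Resident cells were gated as MHC class II intermediate and CD11c high, migratory cells as MHC class II high and CD11c intermediate, all of them CD24+, CD172- and EpCam-. In spleens of female mice there were 2 arrays of WT Irf8VENUS-, 3 of WT Irf8VENUS+ and 3 of Batf3-/- Irf8VENUS+ DC1, sorted on CD24 and XCR1, except that replicate 3 of each Irf8VENUS+ group was sorted on CD24 alone. Which arrays came from separate mice or pools is not stated in the labels, so p-values measure the spread between these arrays, and that spread may be technical. The tables come from different array types and were tested separately, and the small number of arrays limits the precision.

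Batf3 itself was low wherever it should be deleted, at a mean of 5.74 ± 0.23 (SD, n = 3) against 8.38 ± 0.23 (n = 3) in resident cells, 6.02 ± 0.15 (n = 3) against 9.19 ± 0.06 (n = 2) in migratory cells and 6.24 ± 0.90 (n = 3) against 9.93 ± 0.42 (n = 3) in Irf8VENUS+ spleen cells. DC1 markers were bright in resident and spleen cells and lower in migratory cells. The mean over 9 DC1 markers, of which Naaa is also a member of the lysosomal list, ran from 10.35 to 11.02 on resident arrays and from 7.48 to 8.33 on migratory arrays. Of 13 macrophage and monocyte markers on the lymph node arrays 6 passed the filter, Lyz2, Cd14, Marco, C1qa and C1qb among them. Array means over the list ran from 4.48 to 5.06. Of the markers that did not pass, the macrophage genes Adgre1 and Mertk stayed below the filter level of 4.82 on every lymph node array. The SD of the values within an array was 2.16 to 2.23 on resident and 1.96 to 2.16 on migratory arrays, so it moved with migration. Migratory Batf3-/- replicate 3 stood apart, with a correlation of 0.948 and 0.950 with replicates 1 and 2, which correlated at 0.986 with each other. In spleen, WT Irf8VENUS+ replicate 1 stood furthest from its group, with correlations of 0.927 and 0.938.

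The first question was which parts of the degradative machinery are lost or gained when DC1 migrate. In WT cells 19 of 36 members fell and 4 rose between resident and migratory DC1. Losses included 6 of 7 lipid hydrolases and cofactors and 6 of 9 glycosidases, and the gains were the protease genes Lgmn and Ctsl and the membrane protein genes Cd63 and Lamp1. In Batf3-/- cells 14 members fell and 8 rose, the losses again including 5 of 7 lipid and 5 of 9 glycan genes. Most cathepsin genes were not among the losses in either genotype, and neither were most genes of any kind. Of 11 proteases tested 2 fell in each genotype, where 33.2% of all genes fell in WT and 22.6% in Batf3-/- cells. A gene is said to rise or fall where its Benjamini-Hochberg adjusted p, over all genes tested by limma, was under 0.05. Differences are log2 values with the moderated standard error (SE), and levels are log2 intensities.

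Many genes of any kind differ between resident and migratory DC1. Of all 11931 genes tested 33.2% fell and 16% rose in WT (49.2% called), and 22.6% fell and 14.1% rose in Batf3-/- cells (36.6% called). Among the lysosomal members 63.9% were called in WT and 61.1% in Batf3-/- cells. The median difference of the members was -0.84 in WT and -0.37 in Batf3-/- cells, against -0.16 and -0.02 over all genes. Without migratory WT replicate 1 the WT median of the members was -0.46. Over all genes the WT difference varied with mean level. In level bins from 6 to 10 the medians were -0.53 to -0.41, and 44.1% to 46.6% of genes fell. Genes under 5, with 0 members, had a median of 0.22, and 9.25% fell. Genes over 11 had a median of -0.04, and 31.2% fell. The members were chosen with earlier results of these data known and were not matched to genes of like level. Less RNA of a gene per cell cannot be told apart from fewer cells that express it in such bulk samples. Within each title code that held both states, every called member had the sign of the fit, 23 of 23 in WT over 2 codes and 22 of 22 in Batf3-/- cells over 3 codes. These arrays are the ones that gave the calls, so that agreement is not a separate test.

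Markers of other cell types moved with migration too. In WT all 4 B cell markers tested rose, Ms4a1 by 2.11 ± 0.26 among them, and the mean over the 5 on the arrays was 4.28 to 4.78 on resident and 5.86 to 6.11 on migratory arrays. Of 6 T cell markers 3 rose in WT, Cd3g and Cd3d most, with array means of 5.70 to 5.90 and 6.12 to 7.23. Among B and T cell markers limma called none in Batf3-/- cells, and 1 B cell and 0 T cell markers had an unadjusted p under 0.05. The array means there were 4.56 to 4.89 and 4.79 to 5.71 for B cells, and 5.89 to 6.80 and 5.90 to 6.61 for T cells. Of 7 markers of type 2 conventional dendritic cells 5 fell in both genotypes. Of 6 macrophage and monocyte markers tested, 2 fell and 1 rose in WT, and 1 fell and 2 rose in Batf3-/- cells. Lyz2, which encodes lysozyme, differed by -3.17 ± 0.23 and -2.50 ± 0.20. Marco rose in WT (0.47 ± 0.18), and C1qa and C1qb rose in Batf3-/- cells (0.67 ± 0.18 and 0.74 ± 0.15). Of 6 markers of plasmacytoid dendritic cells 1 fell and 2 rose in each genotype. Ccr9 differed by -3.87 ± 0.20 in WT and -4.26 ± 0.18 in Batf3-/- cells, and Ly6d and Spib rose. Cldn1 of a Langerhans cell list fell in both genotypes (-1.53 ± 0.22 and -1.59 ± 0.19). Of 5 stromal and endothelial markers Pecam1 fell (-2.79 ± 0.20) and Lyve1 rose (0.63 ± 0.16) in Batf3-/- cells. The part of these cells in the members' differences was not tested.

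The WT losses were smaller when the SD of the values within an array was added to the model. That SD was 2.21 to 2.22 on resident and 1.96 to 2.03 on migratory WT arrays, so the term and migration cannot be told apart. With that SD as a term in the model, 11 members were called in WT in place of 23, and the members' median was 0.06 in place of -0.84. Of all genes 10.6% were called with the term in place of 49.2%, with a median of -0.05 in place of -0.16. The WT calls that ended were those of Cd68, Ctsa, Ctse, Fuca1, Glb1, Gusb, Hexa, Laptm5, Manba, Npc1, Psap, Scarb2 and Tfeb. In Batf3-/- cells 18 were called in place of 22, with a median of -0.02, and the calls of Ctsa, Glb1, Gusb, Hexa, Manba, Npc1 and Psap ended. Of all genes 33.4% were called there in place of 36.6%. Of the members called without the term, 10 in WT and 15 in Batf3-/- cells kept their call. Of the called members, 9 in WT and 15 in Batf3-/- cells passed in every alternative run (15 and 16 alternatives). Gm2a, Lipa, Man2b1, Naaa and Plbd1 did so as losses and Cd63, Lamp1 and Lgmn as gains in both genotypes, and Asah1 did so as a loss in WT.

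**Figure D1:**
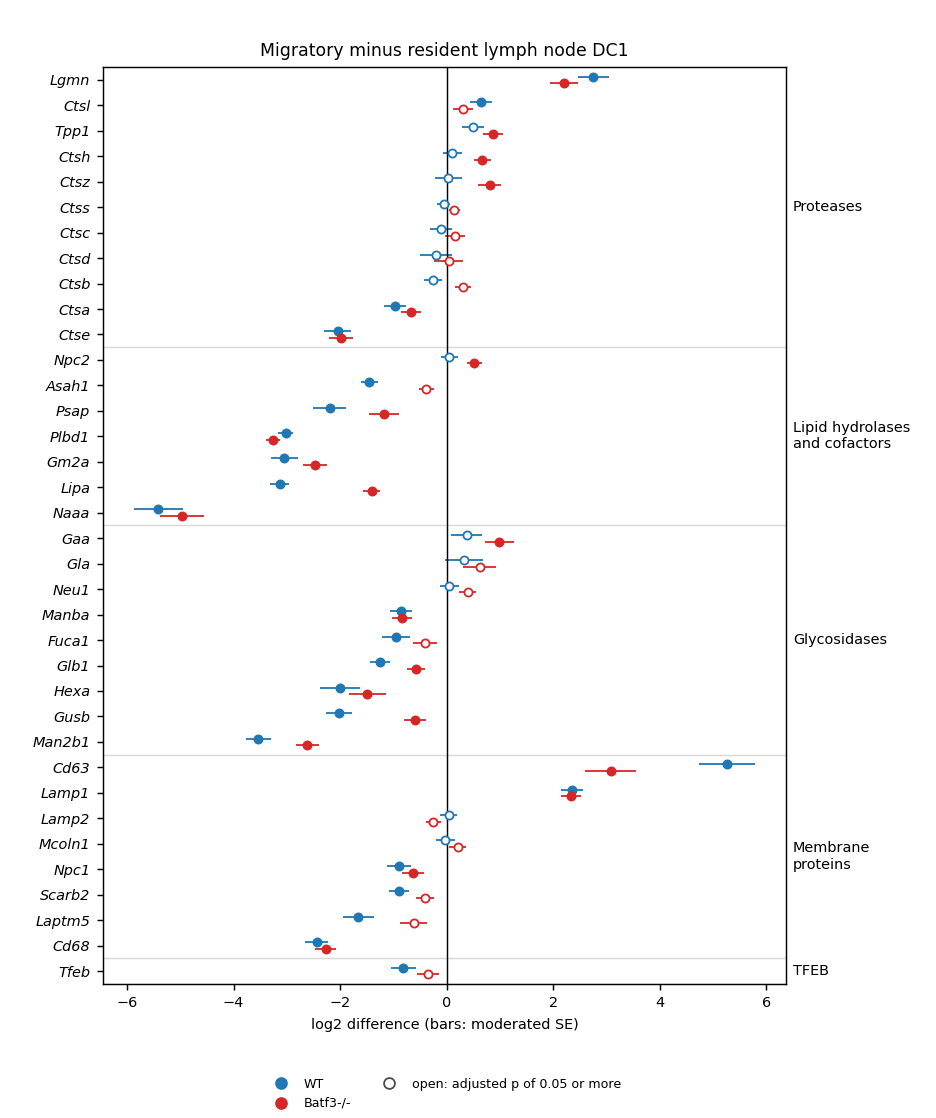
Difference between migratory and resident lymph node DC1 (log2, x axis) for each of the 36 tested lysosomal members, grouped by role, in WT (blue) and Batf3-/- (red) cells; bars are the moderated SE and filled points passed the adjusted p threshold of 0.05. Lipid hydrolases and glycosidases lie mostly left of 0, most cathepsins lie near 0, and Cd63, Lgmn and Lamp1 lie to the right in both genotypes.

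Of 11 proteases tested, 2 rose and 2 fell in WT, and 4 rose and 2 fell in Batf3-/- cells. The shares called were 36.4% and 54.5%, against 49.2% and 36.6% of all genes. The largest protease difference in both genotypes was the rise of Lgmn, which encodes legumain, the asparaginyl endopeptidase that trims antigens and activates cathepsins. On resident WT arrays it read 6.80, 6.23 and 5.85, and on migratory WT arrays 9.02 and 9.08. On Batf3-/- arrays it read 7.43, 7.21 and 7.07 in resident and 9.67, 9.71 and 8.95 in migratory cells. Every migratory array was above every resident array. The rise was 2.75 ± 0.29 in WT (6.74-fold, limma adjusted p = 1.4e-05) and 2.20 ± 0.26 in Batf3-/- cells (4.60-fold, adjusted p = 2.89e-05).

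Ctse fell most among the proteases. It encodes the aspartic protease cathepsin E, and it read 6.84, 7.45 and 7.43 in resident and 5.07 and 5.32 in migratory WT cells. The Batf3-/- arrays read 7.51, 7.01 and 6.67 in resident and 5.13, 4.92 and 5.18 in migratory cells. The resident and migratory arrays did not overlap, and the differences were -2.05 ± 0.25 (adjusted p = 4.22e-05) and -1.99 ± 0.22 (2.08e-05). Ctsa, the carboxypeptidase that also shields β-galactosidase and neuraminidase, fell by 0.97 ± 0.21 and 0.67 ± 0.19, a Batf3-/- call lost without resident replicate 2.

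Ctsb, Ctsc, Ctsd and Ctss passed the test in neither genotype. Ctss, the protease that cleaves invariant chain in dendritic cells, read 10.84 to 10.94 in resident and 10.79 to 10.86 in migratory WT cells, a difference of -0.06 ± 0.12 (adjusted p = 0.705), and 0.15 ± 0.11 in Batf3-/- cells. Ctsb, Ctsc and Ctsd, a cysteine endopeptidase, a dipeptidyl peptidase and an aspartic endopeptidase, differed by -0.25 ± 0.17, -0.10 ± 0.21 and -0.21 ± 0.30 in WT. In Batf3-/- cells the same genes differed by 0.31 ± 0.15, 0.16 ± 0.19 and 0.04 ± 0.27. Ctsl rose by 0.65 ± 0.21 (adjusted p = 0.0226) in WT, from a mean of 4.86 that was close to the filter level, and differed by 0.31 ± 0.19 (0.225) in Batf3-/- cells. The WT rise of Ctsl did not pass without migratory replicate 1 or 2, without resident replicate 3, or with arrays centred on their medians, where adjusted p reached 0.0881.

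Ctsh, Ctsz and Tpp1 rose in Batf3-/- cells. They encode an aminopeptidase, a carboxypeptidase and a tripeptidyl peptidase, enzymes that shorten peptides from their ends. The rises were 0.67 ± 0.16 (adjusted p = 0.00535), 0.81 ± 0.22 (0.0123) and 0.87 ± 0.19 (0.00271). In WT the same genes differed by 0.10 ± 0.18, 0.03 ± 0.25 and 0.49 ± 0.21 and did not pass. The difference between the genotypes did not pass for any of them, with adjusted p of 0.222, 0.233 and 0.472.

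The lipid genes held the deepest losses. Naaa encodes the acid amidase that hydrolyses palmitoylethanolamide, and it is also a DC1 marker. It read 11.90, 12.09 and 12.03 in resident and 5.47 and 7.73 in migratory WT cells. Without Batf3 it read 10.88, 11.15 and 11.02 in resident and 5.93, 5.82 and 6.40 in migratory cells. The migratory arrays lay far below the resident arrays, although the WT migratory arrays stood wide apart. The fall was 42.6-fold in WT (-5.41 ± 0.46, adjusted p = 3.18e-06) and 31.2-fold in Batf3-/- cells (-4.97 ± 0.41, 1.75e-06). All 9 DC1 markers fell in both genotypes, and the part of that change in the fall of Naaa was not tested.

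Plbd1, a phospholipase B-like enzyme, fell by 3.02 ± 0.14 in WT and 3.26 ± 0.13 in Batf3-/- cells. It read 12.38 to 12.41 on the resident WT arrays against 9.10 and 9.64 on the migratory arrays, and its adjusted p of 3.07e-08 in Batf3-/- cells was the smallest of any member there. Gm2a encodes the activator protein that presents GM2 ganglioside to hexosaminidase, and it differed by -3.05 ± 0.25 and -2.48 ± 0.22, a fall in both genotypes. Psap, the precursor of the saposins that help degrade sphingolipids, fell by 2.20 ± 0.32 and 1.18 ± 0.28. With the array SD as a term neither call held, and the differences of Psap were 0.021 and -0.45 (limma adjusted p = 0.983 and 0.121).

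Lipa encodes acid lipase, which frees cholesterol and fatty acids from lipoprotein lipids. It read 8.08, 7.84 and 8.04 in resident and 4.62 and 5.10 in migratory WT cells. The Batf3-/- arrays read 7.02, 7.03 and 6.83 in resident and 5.75, 5.44 and 5.48 in migratory cells. All 4 groups were apart from one another, with resident WT highest and migratory WT lowest. The fall was 8.75-fold in WT (-3.13 ± 0.18, adjusted p = 2.92e-07) and 2.65-fold in Batf3-/- cells (-1.41 ± 0.16, 2.68e-05).

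Asah1 encodes acid ceramidase. It read 9.41, 9.74 and 9.52 in resident and 8.01 and 8.20 in migratory WT cells, a fall of 1.46 ± 0.16 (adjusted p = 2.02e-05). In Batf3-/- cells it read 9.46, 9.69 and 9.55 in resident and 9.23, 9.11 and 9.21 in migratory cells, a difference of -0.38 ± 0.14 (0.0516). The resident groups lay at the same level, and the migratory WT arrays were the lowest. Npc2, the soluble protein that hands cholesterol to NPC1, differed by 0.05 ± 0.16 in WT and rose by 0.52 ± 0.15 (0.0132) in Batf3-/- cells.

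**Figure D2:**
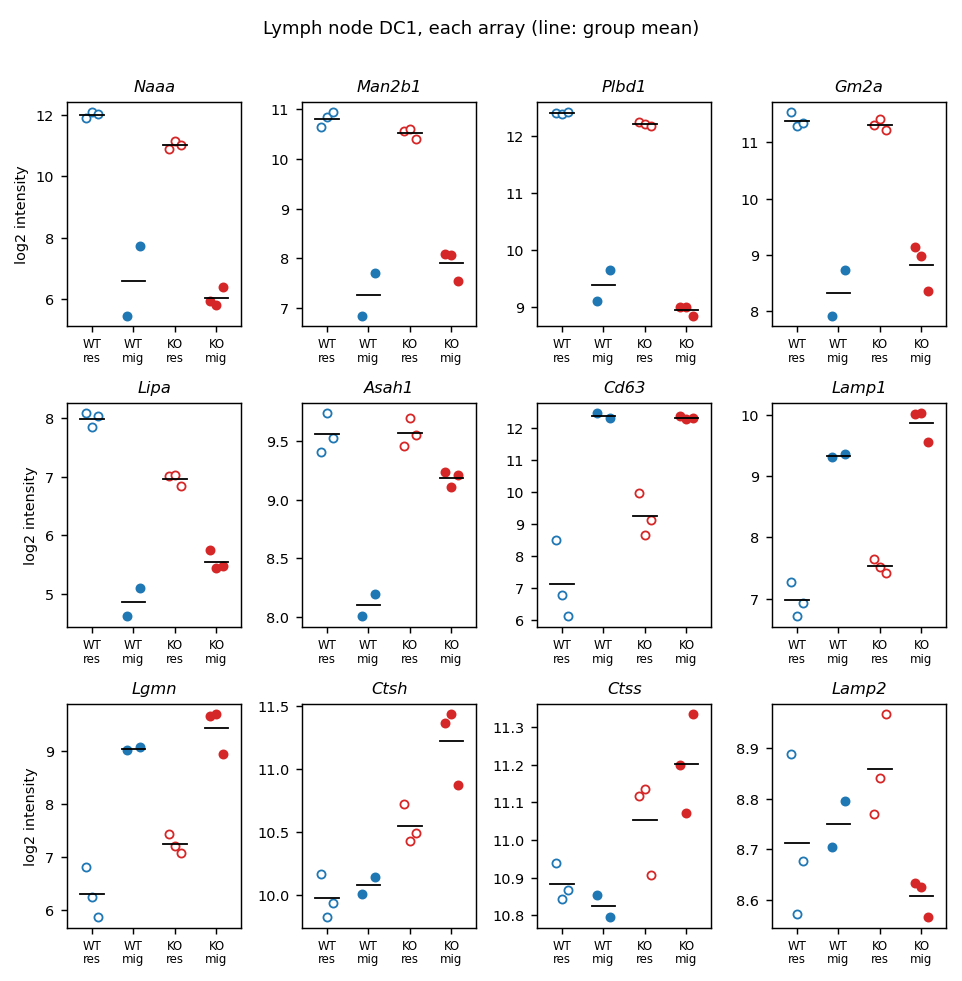
Log2 intensity (y axis, a separate scale in each panel) of 12 members on each lymph node array, in resident (res, open) and migratory (mig, filled) DC1 of WT (blue) and Batf3-/- (KO, red) mice; lines are group means. Naaa, Man2b1, Plbd1, Gm2a and Lipa drop on migration in both genotypes, Cd63, Lamp1 and Lgmn rise, Asah1 drops in WT, and Ctss and Lamp2 span less than 1 log2 unit over all arrays.

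Among the glycosidases the leading loss was Man2b1, the α-mannosidase that trims the sugars of glycoproteins. It read 10.65, 10.83 and 10.93 in resident and 6.85 and 7.70 in migratory WT cells. Without Batf3 the values were 10.56, 10.59 and 10.41 in resident and 8.09, 8.07 and 7.55 in migratory cells. No migratory array came near a resident array. The fall was 11.6-fold in WT (-3.53 ± 0.24, adjusted p = 7.45e-07) and 6.13-fold in Batf3-/- cells (-2.61 ± 0.22, 1.83e-06).

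Gusb, the β-glucuronidase gene, fell by 2.02 ± 0.24 in WT and 0.60 ± 0.21 (adjusted p = 0.0438) in Batf3-/- cells. Hexa, which encodes the α chain of β-hexosaminidase, fell in both as well, by 2.0 ± 0.38 and 1.49 ± 0.34. Smaller losses in both genotypes were those of Glb1, the β-galactosidase gene (-1.25 ± 0.19 and -0.57 ± 0.17), and of Manba, the β-mannosidase gene (-0.86 ± 0.21 and -0.83 ± 0.19). These 4 genes, unlike Man2b1, lost their calls in both genotypes with the array SD as a term. The limma adjusted p with that term in Batf3-/- cells was 0.0896 for Hexa and 0.0555 for Manba. Manba also lost it without migratory WT replicate 1. The Batf3-/- call of Gusb was lost without resident replicate 1 or 2 or migratory replicate 1 or 3, and that of Glb1 without resident replicate 2.

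Fuca1, which removes fucose, fell by 0.94 ± 0.26 (adjusted p = 0.0104) in WT, a call lost without migratory replicate 1, and differed by -0.41 ± 0.23 (0.202) in Batf3-/- cells. Gaa, the acid α-glucosidase that degrades glycogen, went the other way in Batf3-/- cells, with a rise of 0.99 ± 0.27 (0.0106) there and a difference of 0.38 ± 0.30 (0.314) in WT. Gla (α-galactosidase A) and Neu1 (neuraminidase) passed in neither genotype. Gla differed by 0.32 ± 0.36 and 0.62 ± 0.32, and Neu1 by 0.05 ± 0.18 and 0.40 ± 0.16.

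The membrane proteins split. Cd63 encodes a tetraspanin of late endosomes and secretory lysosomes, and it read 8.50, 6.77 and 6.11 in resident and 12.46 and 12.31 in migratory WT cells. The Batf3-/- arrays read 9.97, 8.64 and 9.12 in resident and 12.37, 12.27 and 12.32 in migratory cells. The migratory arrays of both genotypes lay together at the top, and the resident arrays were spread widely below them. The rise was 38.3-fold in WT (5.26 ± 0.53, adjusted p = 1.14e-05) and 8.44-fold in Batf3-/- cells (3.08 ± 0.48, 0.000268).

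Lamp1, the gene of a main glycoprotein of the lysosomal membrane, rose as well. It read 7.28, 6.71 and 6.93 in resident and 9.31 and 9.36 in migratory WT cells, and 7.64, 7.52 and 7.43 against 10.01, 10.03 and 9.56 in Batf3-/- cells. The groups did not overlap, and the rise was 2.36 ± 0.21 in WT (adjusted p = 4.62e-06) and 2.34 ± 0.19 in Batf3-/- cells (1.42e-06). Its relative Lamp2, needed for fusion with autophagosomes, differed by 0.04 ± 0.16 and -0.25 ± 0.14 and did not pass. Mcoln1, the lysosomal calcium channel gene, differed by -0.03 ± 0.18 and 0.21 ± 0.16.

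Cd68, a macrosialin related to the LAMP proteins, fell in both genotypes (-2.44 ± 0.22 in WT and -2.27 ± 0.20 in Batf3-/- cells). It read 8.77 to 8.93 in resident and 6.40 and 6.44 in migratory WT cells, and 8.79 to 9.10 and 6.18 to 6.92 in Batf3-/- cells. Npc1, the membrane partner of NPC2 in cholesterol export, fell by 0.89 ± 0.23 and 0.63 ± 0.20, a Batf3-/- call lost on leaving out any of these arrays but migratory replicate 1. In WT, Laptm5 (a lysosomal protein of blood cells that lowers receptor levels) fell by 1.66 ± 0.29, and Scarb2 (the receptor that carries glucocerebrosidase to lysosomes) by 0.90 ± 0.19. In Batf3-/- cells Laptm5 differed by -0.62 ± 0.26 (adjusted p = 0.0795) and Scarb2 by -0.41 ± 0.17 (0.0776). With the array SD as a term the WT differences of Laptm5 and Npc1 were 0.47 and 0.10.

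Tfeb read 5.64, 6.07 and 6.01 in resident and 4.72 and 5.47 in migratory WT cells, a fall of 0.81 ± 0.23 (adjusted p = 0.0121). Its Batf3-/- arrays read 5.94, 6.17 and 5.89 in resident and 5.54, 5.96 and 5.46 in migratory cells, a difference of -0.35 ± 0.21 (0.217). The WT groups did not overlap and the Batf3-/- groups did. Without migratory WT replicate 1 the WT fall of Tfeb did not pass, and neither did that of Npc1. With the array SD as a term the WT difference of Tfeb was 0.36.

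The losses were largely shared by the genotypes. The 14 members that fell in Batf3-/- cells were all among those that fell in WT, where they made up 73.7% of the 19. Over all genes tested, 2307 fell in both, 58.2% of the WT and 85.6% of the Batf3-/- losses. Asah1, Fuca1, Laptm5, Scarb2 and Tfeb passed in WT alone. Resident and migratory Batf3-/- arrays with the same title code deviated together, and with that code as a block 25 members were called in Batf3-/- cells, with Asah1, Laptm5 and Scarb2 added as losses. Of the gains, Cd63, Lamp1 and Lgmn were shared, 75% of the 4 in WT and 37.5% of the 8 in Batf3-/- cells, against 51.9% and 58.9% over all genes.

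The promoters of these genes were read for the E-box CACGTG, the core of the CLEAR element. RefSeq windows of 300 bases, from 250 before to 50 after a gene start (GRCm38.p6), were at hand for 32 of the 37 members. Asah1, Ctsb, Ctse, Ctsh and Npc1 had none. CACGTG stood in a window of 10 members (31.2%), against 8.09% of all 27025 genes with windows. The longer match TCACGTG, on either strand, which contains the E-box, stood in 9 members (28.1%) against 4.29% of genes. The members with the E-box were Ctsa, Ctsd, Ctsl, Gaa, Gla, Glb1, Lamp1, Lgmn, Mcoln1 and Plbd1. By the WT migration result they were 3 of the 4 members that rose, 3 of the 16 with a window that fell, and 4 of the 11 with a window that were tested and not called. The letters therefore occurred in members of both directions.

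TGANTCA, the AP-1 motif that BATF3 shares with JUN proteins, was searched on both strands too and stood in Cd68, Glb1, Neu1 and Psap, 12.5% of members against 8.97% of genes. GAAA followed after any 2 bases by another GAAA, an interferon-response-like motif that IRF factors bind, stood in Ctss and Lamp1, 6.25% against 3.99%. Such matches describe letters, not binding. The 250 bases before the start are printed for the shared gains Lamp1, Lgmn and Cd63, for Glb1 and Ctsa, which are losses with an E-box, and for Naaa, the deepest loss. Capitals mark E-boxes with the flanking base of TCACGTG or CACGTGA where present, and the AP-1 and interferon-response-like matches.
Lamp1 (chr8:13158911-13159160, plus strand): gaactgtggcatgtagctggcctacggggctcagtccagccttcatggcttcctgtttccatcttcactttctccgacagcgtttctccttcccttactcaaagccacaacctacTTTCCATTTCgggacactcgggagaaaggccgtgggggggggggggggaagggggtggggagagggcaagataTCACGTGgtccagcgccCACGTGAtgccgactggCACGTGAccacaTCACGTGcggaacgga
Lgmn (chr12:102439093-102439342, minus strand): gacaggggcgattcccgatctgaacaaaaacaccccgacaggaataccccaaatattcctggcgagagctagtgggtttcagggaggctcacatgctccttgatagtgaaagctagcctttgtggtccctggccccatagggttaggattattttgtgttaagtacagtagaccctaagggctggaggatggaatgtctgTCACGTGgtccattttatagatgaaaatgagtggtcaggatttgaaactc
Cd63 (chr10:128909095-128909344, plus strand): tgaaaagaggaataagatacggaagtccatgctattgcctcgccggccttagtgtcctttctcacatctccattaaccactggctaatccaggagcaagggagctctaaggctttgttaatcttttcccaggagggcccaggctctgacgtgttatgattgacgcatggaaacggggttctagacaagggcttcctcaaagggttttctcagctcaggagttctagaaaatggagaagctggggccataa
Glb1 (chr9:114400828-114401077, plus strand): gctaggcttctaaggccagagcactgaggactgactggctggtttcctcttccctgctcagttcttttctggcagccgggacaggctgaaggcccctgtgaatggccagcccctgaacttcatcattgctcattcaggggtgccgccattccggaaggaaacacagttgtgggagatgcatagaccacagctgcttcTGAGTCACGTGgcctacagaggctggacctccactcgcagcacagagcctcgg
Ctsa (chr2:164833523-164833772, plus strand): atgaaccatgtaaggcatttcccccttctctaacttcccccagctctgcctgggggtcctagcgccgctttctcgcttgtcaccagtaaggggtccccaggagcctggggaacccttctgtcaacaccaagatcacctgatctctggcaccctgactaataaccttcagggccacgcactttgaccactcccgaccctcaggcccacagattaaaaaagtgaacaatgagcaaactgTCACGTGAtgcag
Naaa (chr5:92278182-92278431, minus strand): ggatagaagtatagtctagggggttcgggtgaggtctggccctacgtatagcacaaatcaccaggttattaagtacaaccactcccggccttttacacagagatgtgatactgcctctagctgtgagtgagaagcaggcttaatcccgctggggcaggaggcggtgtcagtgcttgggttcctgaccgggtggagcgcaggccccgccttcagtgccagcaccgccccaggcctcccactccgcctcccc

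Lamp1 held 4 E-boxes, beginning 61, 45, 28 and 15 bases before the start, and an interferon-response-like match 135 bases before it. In the windows printed, the E-box of Lgmn began 49 bases before the start and that of Ctsa 12 bases before it, where it read TCACGTGA. Lgmn and Ctsa each have another RefSeq start, and the window of that start held no E-box. In Glb1 the AP-1 match TGAGTCA, 53 bases before the start, ran into an E-box that began 48 bases before it. Cd63 and Naaa, the members with the largest rise and fall, showed none of these letters in the stretch printed.

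Whether migration changed a member differently without Batf3 was tested as the difference of the changes. That difference passed for 2 of 36 members, both lipid hydrolase genes, against 1.24% of all genes (0.721% with a positive difference, as here). The change of Lipa on migration was less negative in Batf3-/- cells by 1.72 ± 0.24 (limma adjusted p = 0.00886) and that of Asah1 by 1.07 ± 0.21 (0.0402). For Lipa the resident level was lower and the migratory level higher without Batf3. For Asah1 the resident levels were alike and the migratory level was higher. Within the title codes shared by all 4 groups the difference was 2.19 and 1.15 for Lipa and 1.18 and 0.96 for Asah1.

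The next members did not pass. Gusb differed by 1.43 ± 0.32 (adjusted p = 0.0529), Man2b1 by 0.92 ± 0.32 (0.16), Laptm5 by 1.04 ± 0.39 (0.18) and Cd63 by -2.18 ± 0.71 (0.136). The median over members was 0.41 against 0.12 over all genes. It was 0.21 without migratory WT replicate 1, 0.65 without migratory WT replicate 2 and -0.29 with the array SD as a term. The count rested on single arrays. It was 9 without migratory Batf3-/- replicate 3, 5 without migratory WT replicate 2, 2 (Lipa and Cd63) without resident WT replicate 1, and 1 (Lipa) without any of the 8 other arrays. With the array SD as a term neither passed, and the largest adjusted p of Lipa over the alternatives, 0.121, came from that term.

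In resident cells few members passed the test for loss of Batf3. Of 36 members 1 was higher and 1 lower in Batf3-/- cells (5.56% called), against 0.847% and 0.997% of all genes (1.84% called). An unadjusted limma p under 0.05 was found for 7 of 36 members, against 9.61% of all genes, so members not called may still differ. Lipa fell by 1.03 ± 0.16 (adjusted p = 0.00475), from 8.08, 7.84 and 8.04 to 7.02, 7.03 and 6.83, with no overlap. Cd63 rose by 2.12 ± 0.48 (0.0436), from 8.50, 6.77 and 6.11 to 9.97, 8.64 and 9.12, and the lowest Batf3-/- array lay just above the highest WT array.

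The Lipa call held in all 16 alternatives and the Cd63 call was lost in 10, among them without resident WT replicate 2 or 3 or any of the resident Batf3-/- arrays, where 1 member was called. The migration markers Ccr7 and Ccl22 rose in resident Batf3-/- cells as well, and the mean over 10 such markers ran from 7.28 to 8.31 there against 6.61 to 7.19 in resident WT cells. Of 7 markers of type 2 conventional dendritic cells 2 rose, Clec10a by 2.42 ± 0.28 and Mgl2 by 1.38 ± 0.20. Cldn1 of a Langerhans cell list and the endothelial gene Pecam1 rose too (1.35 ± 0.19 and 2.11 ± 0.20). Of 9 DC1 markers Xcr1 (-1.38 ± 0.21) and Cadm1 (-1.04 ± 0.14) fell. The part of these changes in the rise of Cd63 was not tested. Lgmn and Ctsh, which also rise on migration in Batf3-/- cells, differed by 0.94 ± 0.26 (adjusted p = 0.107) and 0.57 ± 0.16 (0.117). Naaa differed by -0.99 ± 0.41 (0.42). With the title code as a block Lgmn also passed.

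In migratory cells, 7 of 36 members were higher and 0 lower in Batf3-/- than in WT DC1, against 7.13% and 2.28% of all genes (9.41% called). They were the lipid genes Asah1 (1.09 ± 0.16, adjusted p = 0.00549), Psap (1.20 ± 0.32, 0.0357) and Lipa (0.70 ± 0.18, 0.0338), the glycosidase gene Gusb (1.20 ± 0.24, 0.0147), the peptidase genes Ctsh (1.14 ± 0.18, 0.00715) and Ctsz (0.88 ± 0.25, 0.0452), and the membrane protein gene Laptm5 (1.17 ± 0.29, 0.029). The members' median was 0.44 against 0.10 over all genes, 0.25 without migratory WT replicate 1 and -0.13 with the array SD as a term.

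The array values show how far single arrays count. Ctsh read 10.01 and 10.15 in WT and 11.36, 11.43 and 10.87 in Batf3-/- migratory cells. Gusb read 8.06 and 8.88 against 9.70, 9.94 and 9.37, and neither gene's groups overlapped. Psap read 10.10 and 10.74 against 12.04, 12.08 and 10.74, and Laptm5 10.36 and 11.16 against 12.27, 12.33 and 11.21. In both of the latter genes Batf3-/- replicate 3 fell to the level of the higher WT array, and the Psap groups overlapped.

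The count was 20 without migratory Batf3-/- replicate 3, 14 without WT replicate 2, 3 without WT replicate 1 (Asah1 higher, with Naaa and Plbd1 lower) and 2 (Asah1 and Ctsh) without Batf3-/- replicate 1 or 2. It was 0 with the array SD as a term, and also 0 with only these groups in the fit, where 7 genes of all 11931 passed. With the array SD the differences of Laptm5 and Psap were -0.12 and -0.14. The array SD was 1.96 and 2.03 in WT and 2.07 to 2.16 in Batf3-/- migratory cells, so this term and genotype cannot be told apart. With the term 0.31% of all genes were called. Cell type markers differed too. Of 9 DC1 markers 4 were lower, from -1.85 ± 0.24 (Xcr1) to -0.92 ± 0.20 (Clec9a), and Irf8 was higher (1.24 ± 0.21). Of 10 migration markers Relb (1.13 ± 0.28) and Cd83 (0.67 ± 0.18) were higher. Of 6 macrophage and monocyte markers the complement genes C1qa and C1qb were higher (0.92 ± 0.20 and 0.61 ± 0.17). Of 4 B cell markers Ms4a1 was lower (-1.30 ± 0.26). Ly6d of the plasmacytoid dendritic cell list was lower (-1.70 ± 0.40) and Cldn1 of the Langerhans cell list higher (1.30 ± 0.22). The mean over 5 B cell markers was 5.86 and 6.11 on the migratory WT arrays and 4.79 to 5.71 on the migratory Batf3-/- arrays. On resident arrays it was 4.28 to 4.89. The part of these changes in the members' results was not tested.

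**Figure D3:**
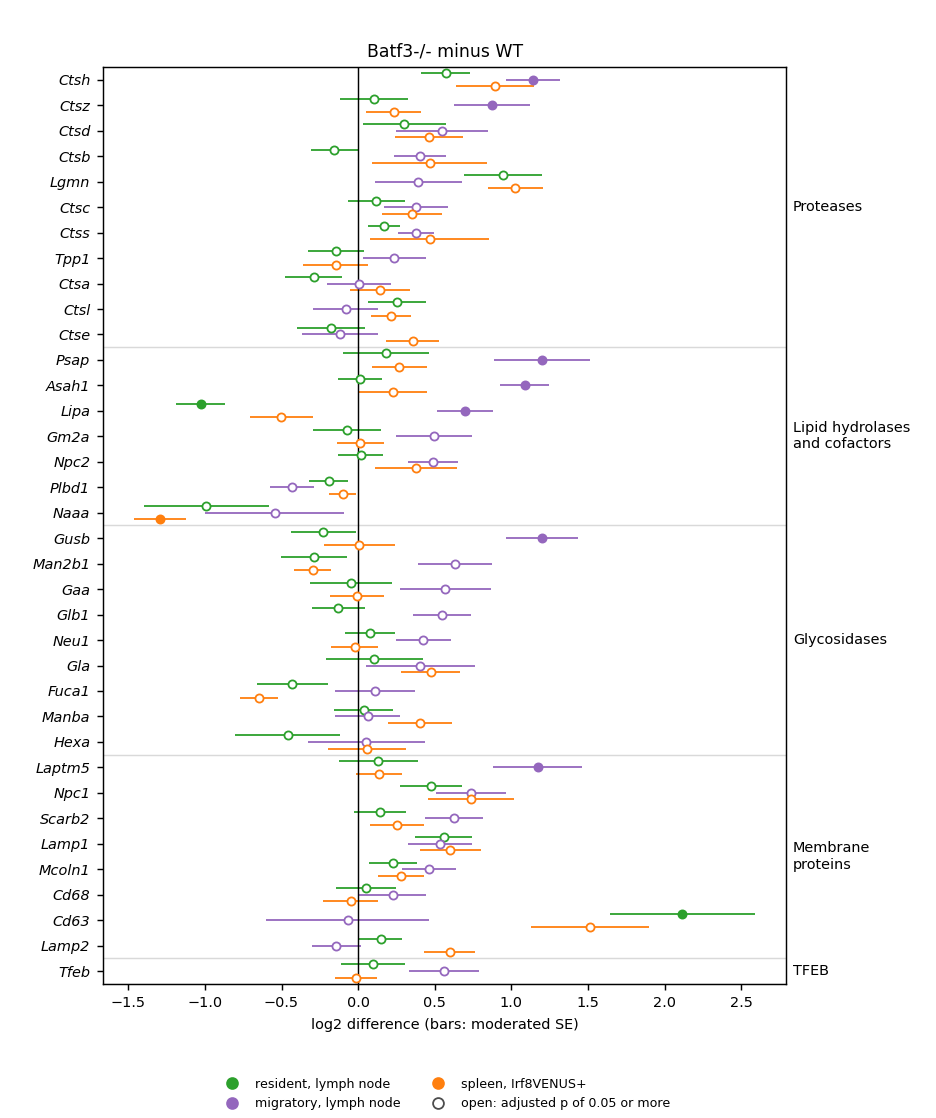
Difference between Batf3-/- and WT DC1 (log2, x axis) for the tested members in resident (green) and migratory (purple) lymph node cells and in Irf8VENUS+ spleen cells (orange); bars are the moderated SE and filled points passed the adjusted p threshold of 0.05. Filled points are Lipa and Cd63 in resident cells, 7 members to the right of 0 in migratory cells, and Naaa in spleen.

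In spleen few members passed the test for the same deletion. Of 35 members 1 fell and 0 rose in Batf3-/- against WT Irf8VENUS+ DC1, where 0.303% and 0.435% of all 12875 genes did (0.738% called). At an unadjusted limma p under 0.05 there were 11 of 35 members, against 10.4% of all genes, so members not called may still differ. Lamp2 read 8.47 to 8.92 in WT and 9.28 to 9.41 in Batf3-/- Irf8VENUS+ cells, and Fuca1 10.41 to 10.71 and 9.70 to 10.08. Neither passed after adjustment. The member that fell was Naaa, which read 10.93, 11.14 and 10.82 in WT and 10, 10 and 9.01 in Batf3-/- cells, and 11.24 and 11.19 in WT Irf8VENUS- cells. All Batf3-/- arrays were below all WT arrays, with replicate 3, sorted on CD24 alone, the lowest.

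The fall of Naaa was 1.29 ± 0.17 (2.45-fold, limma adjusted p = 0.0191), -1.03 among arrays sorted on both CD24 and XCR1 and -1.81 between the arrays sorted on CD24 alone. It did not pass in 8 of 17 alternatives, where adjusted p reached 0.0881. These included the fit without the sort gate, the fit on arrays sorted on CD24 and XCR1, and leaving out any array of these groups but WT replicate 1. The direction was the same in all of them. The DC1 marker Cadm1 fell too, so 2 of 8 DC1 markers did, Naaa among them.

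Lgmn, Cd63, Lipa and Fuca1, each called in some lymph node comparison, did not pass in spleen. Lgmn read 5.95, 6.49 and 6.79 in WT and 7.35, 7.15 and 7.80 in Batf3-/- cells, a difference of 1.02 ± 0.18 (adjusted p = 0.0529) without overlap. Cd63 read 6.87, 8.20 and 7.81 against 9.05, 9.27 and 9.10, a difference of 1.51 ± 0.39 (0.173), but the WT Irf8VENUS- arrays read 9.39 and 8.28. Lipa differed by -0.50 ± 0.20 (0.442) and Fuca1 by -0.65 ± 0.12 (0.07). Lipa and Cd63 thus had the signs they had in resident lymph node cells, and their values in spleen did not pass the test.

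Fscn1, a migration marker, rose in spleen Batf3-/- cells (1.41 ± 0.19), and the mean over 10 such markers was 8.24 to 8.69 there, 7.26 to 7.68 in WT Irf8VENUS+ and 7.90 to 8.14 in WT Irf8VENUS- cells. Klf4 of the type 2 dendritic cell list and Cldn1 of the Langerhans cell list rose as well (1.39 ± 0.22 and 2.73 ± 0.39). The part of these changes in the values of Cd63 and Lgmn was not tested. The members' median in spleen was 0.23 against -0.02 over all genes, and 0.025 without WT Irf8VENUS+ replicate 1, the array furthest from its group.

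Between Irf8VENUS+ and Irf8VENUS- WT spleen DC1 no member passed limma's test at adjusted p under 0.05, where 0.0233% of all genes did (0.0155% higher and 0.00777% lower). An unadjusted p under 0.05 was found for 4 of 35 members, against 7.91% of all genes. The smallest p was that of Ctsc, the dipeptidyl peptidase that activates granzymes. It read 8.69 and 9.08 in Irf8VENUS- and 7.59, 7.91 and 8.56 in Irf8VENUS+ cells, a difference of -1.04 ± 0.23 (adjusted p = 0.385) with no overlap. Cd63 differed by -1.24 ± 0.45 (0.587). The other members lay between -0.72 (Gla and Ctsb) and 0.34 (Fuca1).

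**Figure D4:**
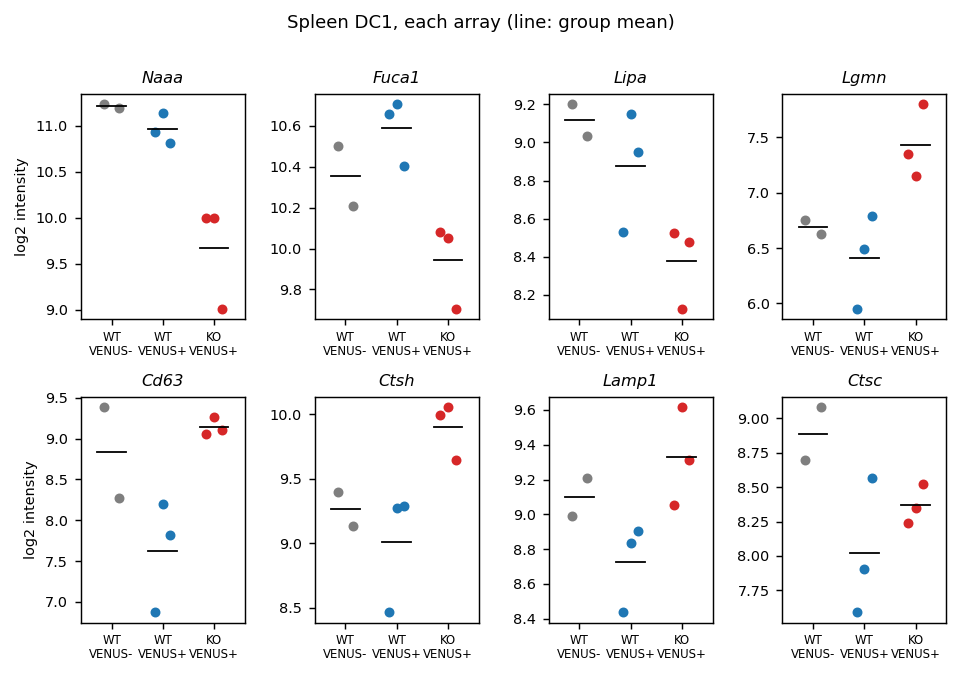
Log2 intensity (y axis, a separate scale in each panel) of 8 members on each spleen array, for WT Irf8VENUS- (grey), WT Irf8VENUS+ (blue) and Batf3-/- Irf8VENUS+ (KO, red) DC1; lines are group means. Naaa is lower on every Batf3-/- array, while for Cd63 and Ctsc the WT Irf8VENUS+ group has the lowest mean of the 3 groups.

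Other lysosomal genes, from a list of 105 that holds no member, were examined in the same fits. On migration 39 of 84 tested fell and 5 rose in WT (medians -0.39 for the list and -0.16 for all genes). In Batf3-/- cells 29 fell and 11 rose. The shares called were 52.4% and 47.6%, against 49.2% and 36.6% of all genes. Of 15 subunits and partners of the proton pump, the V-ATPase that acidifies the lysosome, 5 fell and 1 rose in WT. In Batf3-/- cells 1 fell and 3 rose. The shares called, 40% and 26.7%, were below those of all genes. The membrane subunit genes went apart. Atp6v0a2 fell by 2.51 ± 0.24 in WT and 2.0 ± 0.22 in Batf3-/- cells, and Atp6v0a1 rose by 1.20 ± 0.26 and 1.68 ± 0.23.

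Of 23 further hydrolases 12 fell and 0 rose in WT, and 11 fell and 2 rose in Batf3-/- cells. The shares called were 52.2% and 56.5%, against 49.2% and 36.6% of all genes. Arsb, a sulfatase that acts on dermatan and chondroitin sulfate, fell by 3.13 ± 0.26 and 2.84 ± 0.23, and Ppt1, which removes palmitate from proteins, by 3.00 ± 0.22 and 3.34 ± 0.19. Of 25 further membrane proteins 13 fell and 1 rose in WT, and 12 fell and 2 rose in Batf3-/- cells (56% called in each). Unc93b1, which brings Toll-like receptors to endosomes, led the WT losses with -2.63 ± 0.27, and Laptm4b rose by 2.09 ± 0.22 and 2.18 ± 0.20. Among 3 cathepsin inhibitors tested 1 rose and 1 fell in WT, and 1 rose and 0 fell in Batf3-/- cells. Cstb, which encodes cystatin B, rose by 1.60 ± 0.18 and 1.53 ± 0.16, and Cst3 differed by -0.15 ± 0.06 in WT.

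Of 18 genes of delivery and nutrient sensing 8 fell and 2 rose in WT, and 5 fell and 3 rose in Batf3-/- cells. The shares called were 55.6% and 44.4%, against 49.2% and 36.6% of all genes. Nagpa, which finishes the mannose 6-phosphate tag of lysosomal enzymes, fell by 2.34 ± 0.26 and 1.22 ± 0.23, and Rraga, a GTPase of the lysosomal mTORC1 machinery, fell too (-2.22 ± 0.18 and -1.66 ± 0.16). In migratory cells 12 of the 84 were higher and 2 lower in Batf3-/- than in WT DC1 (16.7% called, against 9.41% of all genes). Plbd2, a relative of Plbd1, was higher by 1.70 ± 0.24, and Ppt1 was lower by 1.11 ± 0.22. None of these lists held a called gene in resident cells or in spleen, where 10 of 84 and 10 of 85 had an unadjusted p under 0.05 in the limma fits of Batf3-/- against WT (9.61% and 10.4% of all genes).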

How the data were processed

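The values are the authors' deposited array tables, processed with RMA (background correction, quantile normalization and probe summary) per the submitters' processing notes; the sources used here give no version of it. Deposited spleen values are intensity values on a linear scale (1.85 to 13035.5), of which log2 was taken, and deposited lymph node values are log2 (1.35 to 13.96). Gene names came from the annotation of each array type, updated by gene identifier through RefSeq. Of 35556 lymph node probe sets 21789 carried 1 symbol, 1621 several and 12146 none; of 41345 spleen probe sets these were 23521, 1814 and 16010. Those with several symbols were not used, and a gene was read from its brightest probe set. Identifiers matched for 21698 and 23328.

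A gene was tested where at least 2 arrays reached the table's median (4.82 lymph node, 5.04 spleen). The models (R 4.3.3, limma 3.58.1, eBayes with a mean-variance trend) took in all arrays of a table, for spleen with the sort gate as a term, and adjusted p under 0.05 was called. Named members are those called, or else that of smallest p; every array value is given for the largest difference of each role, and for other lists up to 2 called genes each. Arrays with the same title code deviated together across genes in resident and migratory Batf3-/- cells (correlations 0.416, 0.210 and 0.479); in the other comparisons not every pair exceeded 0.1. Alternatives changed the filter, scaling, probe set rule, arrays in the fit, weights, trend, block, sort gate and array SD, and left out each array. The members and lists were chosen with earlier results of these data known.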

Additional observations from a re-analysis of the deposited data

Results flagged for a closer look

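The migration change differed between the genotypes for Lipa, by 1.72 on the log2 scale (Batf3-/- minus WT, limma adjusted p = 0.00886). It also differed for Asah1, by 1.07 (adjusted p = 0.0402). The call of Asah1 was lost in 11 of 20 alternatives and that of Lipa in 1, the array SD as a term.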

How the results depend on the processing

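Counts of called members stayed within 1.5 times in all alternatives for Batf3-/- migration (18 to 29) and, but for the array SD as a term (11), for WT migration (main value 23). With that term the WT migration differences of Laptm5 (0.47), Psap (0.021), Npc1 (0.10) and Tfeb (0.36) and the migratory Batf3 differences of Laptm5 (-0.12) and Psap (-0.14) changed sign and did not pass; the cause was not tested. For Batf3 in resident cells the count of 2 became 4 with the array SD, 7 with array weights, and 1 with centred arrays, no filter, no trend or another quantile normalization. For Batf3 in migratory cells the count of 7 became 0 with the array SD or only the groups compared, 14 with array weights and 13 with the replicate block. For the difference of the migration changes the count of 2 became 0 with the array SD, 6 with array weights and 1 with another quantile normalization. For spleen the count of 1 became 3 with array weights, 2 with the mean of probe sets, no trend, another quantile normalization or the stricter filter, and 0 with no sort gate, with CD24 and XCR1 arrays only, or with only the groups compared. Leaving out each array gave 18 to 24 for WT and 18 to 23 for Batf3-/- migration, 1 to 3 for resident and 2 to 20 for migratory Batf3 differences, 1 to 9 for the difference of changes, 0 to 2 for spleen, and 0 for the reporter comparison. With the replicate block the counts were 23, 25, 3, 13, 3, 1 and 0 in the order used here, and no main call was lost. In WT migration, median-centred arrays moved the median of all genes from -0.16 to -0.31 (11.2% higher, 39% lower), another quantile normalization to -0.05 (19% and 26.9%), and no filter to 0.12 (24.4% and 20.1%). Neither table gives a background level, so absence cannot be set apart from a low signal, and WT migration rests on 2 migratory arrays.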
